A study of Dichotomyctere nigroviridis with 22 samples.

Results

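Control hypothalamus was compared with control ovary in vitellogenic female green-spotted puffers (*Dichotomyctere nigroviridis*), a small fish of brackish and fresh water with a compact genome. The comparison used 11 of the 22 bulk RNA-seq libraries of the series, chosen by their labels: 6 control hypothalami (replicates 1 to 6) and 5 control ovaries (replicates 1, 2, 3, 5 and 6). The series asked how phoenixin-14 (PNX-14), a peptide hormone tied to reproduction, alters both organs, and the remaining 11 libraries came from fish given PNX-14 at 100 ng per g of body weight. The control fish of both organs were given an intramuscular injection of vehicle without PNX-14. The labels call this vehicle saline and the study's methods call it sterile water. By those methods, fish of both treatments had first been moved to saltwater over 3 months so that their ovaries would reach yolk uptake. They were also anesthetized and had an ovarian biopsy before the injection. All fish were sexually mature females whose oocytes were taking up yolk, and organs were taken 24 h after the injection. The sources differ on whether whole ovaries or ovarian biopsies were sequenced, and none states which hypothalamus and ovary came from the same fish. The study's methods give 6 control fish for both organs, so each of the 5 ovaries shared its fish with a hypothalamus. The tests took the 11 libraries as independent all the same. Their p-values therefore rest on the spread between fish within each organ and leave out that organs of the same fish are paired.

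The hypothalamus is the part of the forebrain that joins the nervous system to the endocrine system. Its neurons release peptides of the oxytocin and vasotocin family, and through the pituitary it sets the release of the gonadotropins that act on the ovary. A vitellogenic fish ovary is filled with growing oocytes, which store maternal RNA and make the proteins of the egg coat, and each oocyte is wrapped by granulosa and theca cells that produce steroids. In bulk tissue, fewer cells of a type and less RNA per cell cannot be told apart.

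Counted reads ranged from 9652996 to 12729314 in hypothalami and from 11756975 to 15735216 in ovaries. Of 20108 genes listed for either organ, 19071.5 ± 114 had at least 1 count in a hypothalamus and 17569 ± 323 in an ovary (SD, n = 6 and 5, exact two-sided permutation p = 0.00216, the smallest that 6 against 5 libraries can give, Benjamini-Hochberg 0.00271 over 5 measures). The 100 most abundant genes took 15.9% ± 0.807 of counts in hypothalami and 21.6% ± 2.38 in ovaries (exact permutation p = 0.00216). Correlations of log2 expression between libraries were 0.8834 to 0.9724 among hypothalami, 0.952 to 0.9753 among ovaries and 0.3331 to 0.6028 between the organs. Levels below are counts scaled to library size (CPM) on a common scale set by TMM, a scaling that assumes most genes do not differ. Summed CPM of a list, and the part of a sum that a member makes up, do not take gene length into account. Apart from these, levels of different genes are compared by FPKM, which does.

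The hypothalami were not equal in their content of egg transcripts. *zpax1* (chromosome 14, 4263811 to 4268038, TETRAODON 8.0), which encodes an egg coat protein of the zona pellucida family, was at 1129.82, 1596.91, 26.0, 212, 1138.78 and 120 CPM in hypothalami 1 to 6, against 8677, 12111, 15029, 13172 and 6435 CPM in the ovaries. The organs did not overlap, but hypothalami 1, 2 and 5 were each above hypothalami 3, 4 and 6. Set against the ovary mean of 11085 CPM, these hypothalamic levels were 10.2%, 14.4%, 0.235%, 1.91%, 10.3% and 1.09%. The egg coat genes *zp2l2* and *zp3f.1* gave shares of 0.258% to 18.8% and 0.208% to 16.4%, with the lowest value in hypothalamus 3 and the highest in hypothalamus 2. *bmp15* (scaffold Un_random, 36200408 to 36201667), which encodes a growth factor that oocytes secrete, was lowest in hypothalamus 3 (0.148% of the ovary mean) and highest in hypothalamus 5 (18.8%).

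The same gradient ran through a wider set of ovary genes that was selected in the PNX-14 libraries alone, as those with at least 50 CPM in ovaries and at most 1% of that level in the lowest hypothalamus. Over these 147 genes, the median share of the control ovary mean was 9.07%, 11.5%, 0.301%, 2.26%, 15.0% and 1.18% in control hypothalami 1 to 6. Of the markers of the cells around the oocyte, *wt1b* (0.513% in hypothalamus 3 and 12.9% in hypothalamus 5) and *cyp19a1a*, the ovarian aromatase (1.49% in hypothalamus 3 and 15.6% in hypothalamus 2), were lowest in hypothalamus 3, and *fshr* and *foxl2a* were not. The median over the follicle cell list was also lowest in hypothalamus 3 (6.83%) and highest in hypothalamus 5 (17.8%). *fshr*, the receptor for follicle-stimulating hormone, stood at 15.6% to 30.3% of its ovary mean in every hypothalamus, with 22.6% in hypothalamus 3, where the median of the 147 genes was lowest. *foxl2a*, a transcription factor of granulosa cells, was at 4.32% to 11.8% and was also 8.90% in hypothalamus 3. In the other direction, 548 genes selected in the same manner as hypothalamus genes stood in the 5 ovaries at a median of 0.287% to 0.466% of their hypothalamic level. The source of the egg transcripts in hypothalami was not tested. Results that rest on ovary genes are given with all 6 hypothalami and, as a description, with hypothalami 3, 4 and 6 alone. These were chosen as the lowest in *zpax1*, so lower levels of egg transcripts in them follow from the choice.

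**Figure D1:**
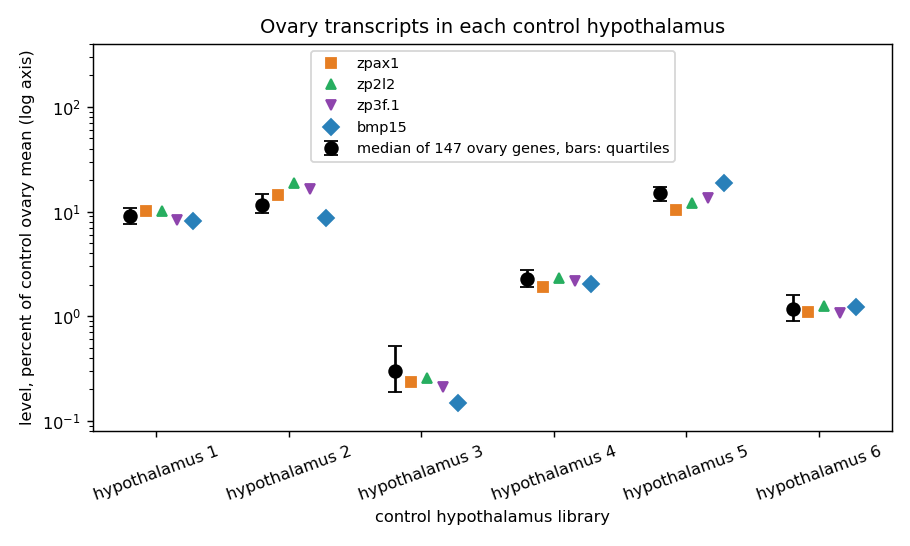
Level of ovary transcripts in each of the 6 control hypothalami as percent of the control ovary mean (y axis, log scale), with the median and quartiles of 147 ovary genes in black and single marker genes as coloured symbols. The 147-gene median was 9.07%, 11.5% and 15.0% in hypothalami 1, 2 and 5 and 0.301% to 2.26% in hypothalami 3, 4 and 6.

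Across 17115 genes tested, 7431 were higher in hypothalamus (43.4%) and 6590 were lower (38.5%) at an edgeR adjusted p under 0.05, or 14021 in all (81.9%), and in 11690 genes (68.3%) the 2 groups of libraries did not overlap. A second edgeR test asked whether the difference exceeded 4-fold, and 3565 genes passed as higher in hypothalamus (20.8%) and 1479 as lower (8.64%), or 5044 in all (29.5%). The median log2 fold change of hypothalamus over ovary over all genes was 0.16 with TMM, 0.24 with RLE scaling, 0.43 with upper quartile scaling and 0.47 with no scaling, and with no scaling the higher share of the 4-fold calls was 80.6% in place of 70.7%. Fold changes below are on the TMM scale. List members called higher or lower below stand against the 43.4% and 38.5% of all genes.

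The fold changes were lopsided. Fitted log2 fold changes ran from -5.88 to 14.38, the highest being of a gene with 0 ovary counts, with the 1st percentile at -3.87 and the 99th at 9.72. In all, 2145 genes were more than 16-fold higher in hypothalamus and 111 more than 16-fold lower, and past 64-fold there were 1052 higher and 0 lower. With hypothalami 3, 4 and 6 alone, the counts past 64-fold were 1064 higher and 203 lower, and the number past the 4-fold test as lower was 2268, which included 1468 of the 1479. Among those 1479 genes, hypothalami 1, 2 and 5 were all above hypothalami 3, 4 and 6 in 1270 (85.9%), against 63 of the 3565 higher genes (1.77%) and 3385 of all 17115 genes (19.8%). Hypothalami 3, 4 and 6 were picked by their low *zpax1*, so these counts are descriptions only. The part that egg transcripts in hypothalami 1, 2 and 5 had in the size of these fold changes was not tested.

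**Figure D2:**
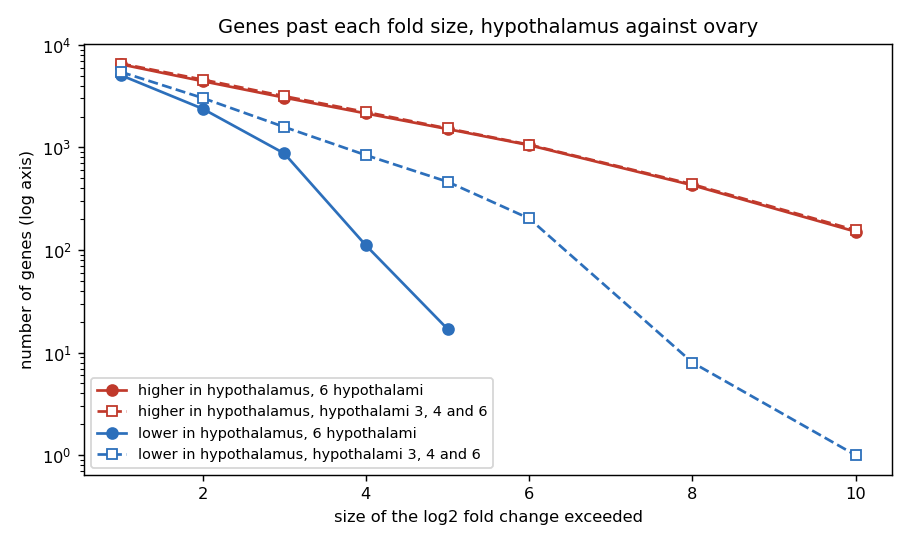
Number of genes (y axis, log scale) whose log2 fold change of hypothalamus over ovary exceeded each size on the x axis, higher and lower in hypothalamus, with all 6 hypothalami and with hypothalami 3, 4 and 6 alone (points at 0 genes are not drawn). The curves for higher genes lie close together (1052 and 1064 genes past a log2 size of 6), while those for lower genes part (0 and 203 genes).

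Some genes differed little between the organs. In 3072 genes (17.9%) the 95% interval of the fold change lay within 2-fold in either direction. These were counted whether or not they were called at an adjusted p under 0.05. *gsk3bb*, which encodes a kinase of Wnt and insulin signaling, was at 56.2 to 71.7 CPM in hypothalami (median 62.3) and at 70.5, 51.9, 56.4, 70.4 and 66.0 CPM in ovaries, with a log2 fold change of 0.00 (SE 0.13). The mitochondrial aspartate and glutamate carrier *slc25a12* averaged 80.2 ± 6.16 CPM in hypothalami and 80.7 ± 6.25 CPM in ovaries (log2 fold change -0.01, SE 0.12). Its direction, and that of *gnai2a* and *zdhhc16b*, turned positive with no scaling. Of 18 genes often used as references for quantitative PCR, 2 were higher, 11 lower and 5 not called. The succinate dehydrogenase subunit *sdha* (157 CPM in both organs) and the elongation factor *eef2b* (1544 CPM in hypothalami and 1397 CPM in ovaries) were among those not called.

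The genes of the egg itself were lower in hypothalamus throughout. All 4 measured egg coat genes and all 17 measured oocyte factors were called lower, with median log2 fold changes of -3.80 and -3.87. With hypothalami 3, 4 and 6 alone the medians were -6.37 and -6.21. That subset was chosen by low *zpax1*, itself among the 4 egg coat genes, so more negative medians follow from the choice. *zpax1* had a log2 fold change of -3.98 (SE 0.85, edgeR adjusted p = 0.000867), and *zp3f.1* (chromosome 15, 2200573 to 2202347) one of -3.84 (SE 0.88, adjusted p = 0.00135). *bmp15* was at 0.682 to 86.6 CPM in hypothalami (median 23.3), against 434, 480, 413, 450 and 529 CPM in ovaries, with a log2 fold change of -3.94 (SE 0.84, edgeR adjusted p = 0.00083). Its ovary values lay close together, and its hypothalamic values did not. *zar1l*, a relative of a maternal factor needed for early embryos in mouse, averaged 118 ± 120 CPM in hypothalami and 2116 ± 475 CPM in ovaries.

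Germ cell RNA-binding genes were lower in 15 of 21 and higher in 3. *ddx4*, the vasa helicase that marks germ cells, was at 0.256 to 44.6 CPM in hypothalami (median 15.1), against 323, 250, 255, 257 and 257 CPM in ovaries (log2 fold change -3.83, SE 0.83, edgeR adjusted p = 0.000913). *tdrd7b*, a tudor domain protein of germ granules, went the other way, at 31.1 to 53.9 CPM in hypothalami (median 39.9), against 17.3, 15, 13.4, 20 and 20.7 CPM in ovaries (log2 fold change 1.21, adjusted p = 3.85e-05). Meiotic chromosome genes were lower in 12 of 16. The strand-exchange cofactor *mnd1* was lower (log2 fold change -2.70, SE 0.24), and the recombination helicase *hfm1* was higher, at 2.31 to 8.02 CPM in hypothalami and 0 to 1.35 CPM in ovaries.

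Cell cycle genes were largely on the ovary side. Of 36 cell cycle and maturation kinase genes, 33 were lower and 2 higher in hypothalamus, and all 43 DNA replication genes were lower (medians -3.20 and -2.75). The mitotic cyclin *ccnb2*, which drives oocyte maturation in complex with its kinase, was at 9.04 to 469 CPM in hypothalami (median 164), against 1949, 3481, 3461, 2411 and 2510 CPM in ovaries (log2 fold change -3.87, SE 0.80). The replication clamp *pcna* was at 35.0 to 172 CPM in hypothalami (median 94.9), against 788, 1049, 971, 794 and 841 CPM in ovaries (log2 fold change -3.13, SE 0.37, edgeR adjusted p = 2.93e-06). The D-type cyclins *ccnd2a* and *ccnd1*, which act at the entry into the cycle, were the exceptions with log2 fold changes of 2.78 and 1.16. Across libraries, replication genes kept a higher floor than egg coat genes: in hypothalamus 3 their median was 8.68% of the ovary mean, against 0.246% for the egg coat.

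Genes of the follicle cells were mixed, with 8 higher and 11 lower of 21 (median -0.98), against 43.4% and 38.5% over all genes. *wt1b* and *gata6*, transcription factors of gonadal somatic cells, were lower with log2 fold changes of -4.65 (SE 0.63) and -5.15 (SE 0.65). *gata6* was at 0.139 to 4.84 CPM in hypothalami (median 1.5), against 36.4, 64.9, 70.7, 54.1 and 102 CPM in ovaries. The keratin *krt8*, of simple epithelia, was lower (log2 fold change -0.98) and its partner *krt18b* higher (1.08), so the pair that forms a filament together moved in opposite directions.

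Steroid synthesis genes were split between 9 higher and 12 lower of 23, against 43.4% and 38.5% over all genes. The enzymes that carry cholesterol to estradiol were lower. *cyp11a2* cleaves the cholesterol side chain, *hsd3b1* and *cyp17a1* convert its products, *hsd17b1* reduces estrone to estradiol and *cyp19a1a* makes estrogens. *hsd17b1* (chromosome 3, 12993016 to 12994732) was at 0.682 to 13 CPM in hypothalami (median 6.62), against 175, 319, 271, 189 and 439 CPM in ovaries. Its log2 fold change of -5.39 (SE 0.73, edgeR adjusted p = 2.07e-05) was -7.59 with hypothalami 3, 4 and 6 alone. The log2 fold changes of *hsd3b1*, *cyp17a1*, *cyp11a2* and *cyp19a1a* were -5.27 (SE 0.62), -5.08 (SE 0.85), -4.51 (SE 0.57) and -4.15 (SE 0.65), and in each the organs did not overlap.

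The cholesterol transporter of mitochondria, *star*, went against these enzymes. It averaged 11.5 ± 2.75 CPM in hypothalami and 5.10 ± 2.94 CPM in ovaries (log2 fold change 1.17, SE 0.35, edgeR adjusted p = 0.00701), and its groups overlapped. *hsd17b3*, which makes testosterone in mammals, was at 27.4 to 41.1 CPM in hypothalami (median 39.7), against 4.01, 3.98, 3.81, 8.24 and 2.51 CPM in ovaries (log2 fold change 3.05, SE 0.28). The second 17-alpha-hydroxylase *cyp17a2* was higher in hypothalamus at a low level (2.24 CPM in hypothalami and 0.221 CPM in ovaries, log2 fold change 3.33).

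Hormone receptors were found on both sides. Of 37 tested, 15 were higher and 14 lower in hypothalamus, close to the shares of 43.4% and 38.5% over all genes, with a median of -0.07 that turned to 0.02 with RLE scaling, 0.21 with upper quartile scaling and 0.23 with none. The gonadotropin-releasing hormone receptor *gnrhr1* (chromosome 17, 735942 to 738792) was at 118 to 194 CPM in hypothalami (median 141), against 0.436, 0.199, 1.81, 1.12 and 1.08 CPM in ovaries, a log2 fold change of 7.28 (SE 0.39, edgeR adjusted p = 1.58e-09). The membrane progestin receptor *paqr7b* averaged 70.0 ± 7.53 CPM in hypothalami and 0.686 ± 0.630 CPM in ovaries (log2 fold change 6.57, SE 0.40). Also higher were *galr2a*, a receptor for galanin (7.21), *mc4r*, for melanocortins (6.69), and *lepr*, for leptin (2.85). The kisspeptin receptor *kiss1ra* had 3.33 to 7.90 CPM in hypothalami and 0 counts in all 5 ovaries. Its level pooled over the hypothalami was at least 105-fold higher against a floor of 3 counts over the ovary group. Bounds of this kind below also hold for the pooled level, not for each hypothalamus.

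Nuclear receptors for sex steroids and the receptor for follicle-stimulating hormone were lower in hypothalamus. *esr2a*, an estrogen receptor of the beta type, was at 6.27 to 34.3 CPM in hypothalami (median 9.26), against 46.2, 92.9, 60.7, 60.3 and 77.5 CPM in ovaries (log2 fold change -2.37, SE 0.40, edgeR adjusted p = 0.000115). The androgen receptor *ar* averaged 12.2 ± 1.85 CPM in hypothalami and 36 ± 12.3 CPM in ovaries (log2 fold change -1.56, SE 0.23). *esr1*, the alpha-type estrogen receptor, lay closest to equal among the 5 nuclear sex steroid receptors, with 18.8 ± 2.58 CPM in hypothalami and 27.3 ± 7.77 CPM in ovaries (log2 fold change -0.54, SE 0.19, adjusted p = 0.0189), and its groups overlapped. The nuclear progestin receptor *pgr* had a log2 fold change of -1.94 (SE 0.51), which was -3.14 with hypothalami 3, 4 and 6 alone, and *fshr* had one of -2.20 (SE 0.24). The insulin-like growth factor receptor *igf1rb* was not called (109 ± 16 CPM in hypothalami and 114 ± 30.9 CPM in ovaries).

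Neuropeptide genes were higher in hypothalamus in 19 of 22 tested and lower in 2, with a median log2 fold change of 5.82. *oxt*, the precursor of the oxytocin-type peptide of fish, lies near *avp*, the vasotocin precursor, on chromosome 12 (9156221 to 9157076 and 9135636 to 9136702). *oxt* was at 1144 to 1973 CPM in hypothalami (median 1712), against 0.959, 0.398, 0.816, 0.937 and 0.271 CPM in ovaries, a log2 fold change of 11.22 (SE 0.41, edgeR adjusted p = 8.16e-11). *avp* was lower in level and less one-sided, at 74.1 to 257 CPM in hypothalami (median 152), against 0.785, 7.65, 6.98, 2.15 and 2.1 CPM in ovaries (log2 fold change 5.32, SE 0.58). Per length, *oxt* stood at 3776 FPKM and *avp* at 376 FPKM in hypothalami.

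Other peptides were also far higher in hypothalamus. Thyrotropin-releasing hormone (*trh*), the cholecystokinin *ccka* and the pituitary adenylate cyclase activating peptide *adcyap1b* had log2 fold changes of 8.36, 7.70 and 8.12. *vip*, vasoactive intestinal peptide, ranged over 8.61 to 111 CPM in hypothalami with a median of 16.2. *npy*, which stimulates feeding, ranged over 3.82 to 51.7 CPM with a median of 10.02 CPM and had 0 counts in every ovary. Its level pooled over the hypothalami was at least 407-fold higher, a bound that does not hold for each hypothalamus. The calcitonin gene-related peptide gene *CALCB* was likewise at 0 in every ovary (at least 542-fold higher). The exceptions were *prok2*, the precursor of prokineticin 2, at 0 to 7.60 CPM in hypothalami (median 2.28) against 63.9, 24.4, 57.6, 34.5 and 41.7 CPM in ovaries, and the adrenomedullin gene *adma* (3.52 CPM in hypothalami and 15.7 CPM in ovaries, log2 fold change -2.15). The corticotropin-releasing hormone gene *crhb* was listed for the hypothalamus alone, at 10.7 CPM.

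A candidate receptor for phoenixin and an orphan relative of it were higher in hypothalamus. Of the 7 symbols sought in their list, 2 were matched. The paper describes 2 puffer copies of the receptor. By the paper, *sreb3a* is expressed most in brain and gonads, and *sreb3b*, a potential second phoenixin receptor, is elevated in brain. Which copy the gene named *gpr173* is was not tested, and no other copy was matched by symbol. *gpr173* (chromosome 9, 8942385 to 8943562), a candidate phoenixin receptor, was at 49.0 to 70.6 CPM in hypothalami (median 59.98), against 0.436, 0.398, 0.816, 0.187 and 0.677 CPM in ovaries (log2 fold change 6.82, SE 0.28, edgeR adjusted p = 1.66e-10). Its relative *gpr85*, an orphan receptor of the brain, was at 29.5 to 35.0 CPM in hypothalami (median 32.3), against 0, 0.0994, 0.181, 0.375 and 0.135 CPM in ovaries (log2 fold change 7.60, SE 0.37). Neither overlapped, and neither shifted by more than 0.1 on the log2 scale with hypothalami 3, 4 and 6 alone (6.84 and 7.56). Genes of peptide processing and dense-core vesicles were higher in 10 of 13, such as the granin *scg2b* (6.46, SE 0.22) and carboxypeptidase E, *cpe* (3.94, SE 0.23), while the granule membrane protein *ptprnb* was lower (-1.87, SE 0.22).

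**Figure D3:**
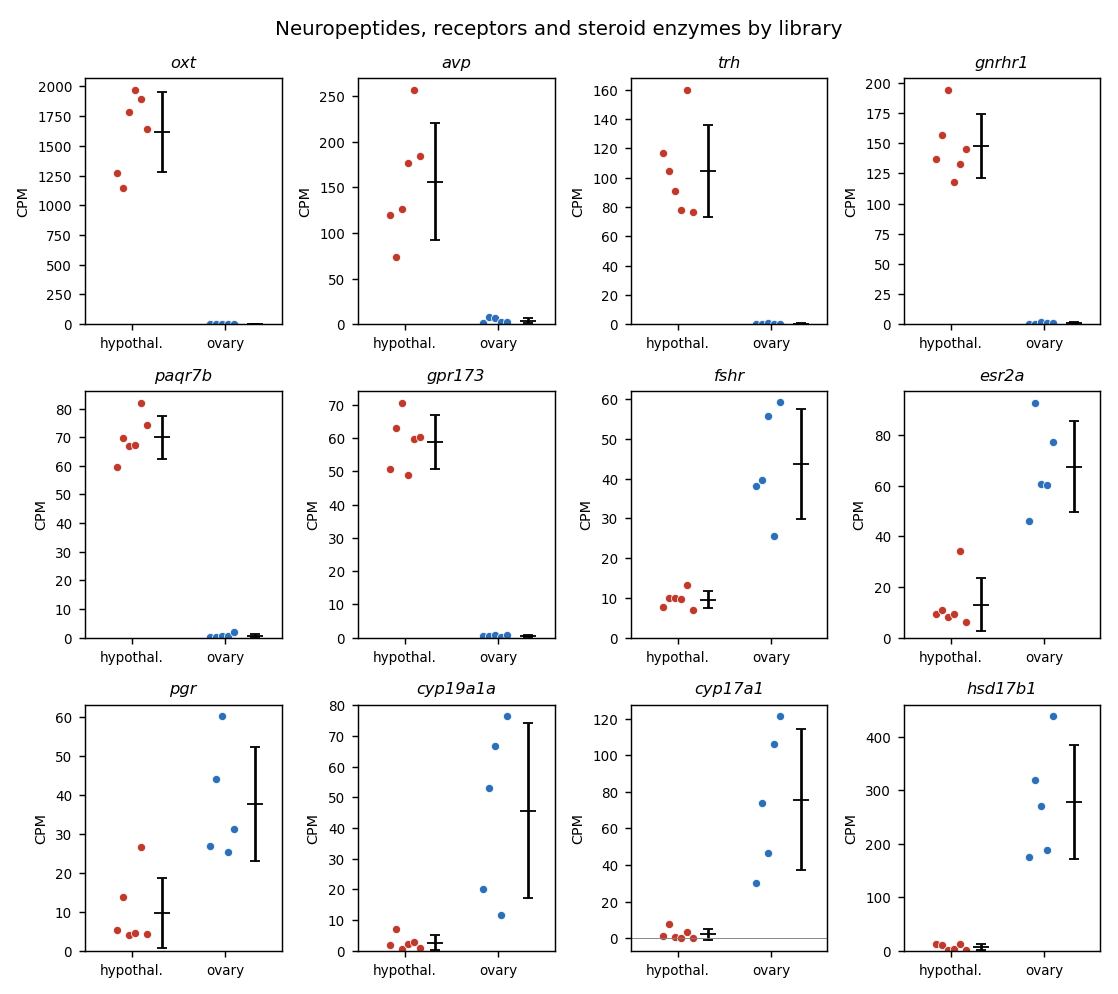
CPM of single hormone, receptor and steroid enzyme genes in each control hypothalamus (left) and control ovary (right), 1 point a library, with the mean and SD. The hypothalamic genes such as *oxt* (1144 to 1973 CPM) and *gpr173* (49.0 to 70.6 CPM) and the ovarian enzyme *hsd17b1* (175 to 439 CPM) show no overlap between the organs, while the highest hypothalamus of *pgr* (26.5 CPM) lies above its lowest ovary (25.4 CPM).

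Lists of neuronal genes were higher almost throughout. Synaptic vesicle release was higher in 37 of 38 (median 6.36), neuron structure and RNA binding in 36 of 38 (6.89), glutamate and GABA signaling in 49 of 54 (6.48) and voltage-gated channels in 43 of 45 (4.58). *snap25a*, a membrane fusion protein of the nerve terminal, was at 1399 to 1840 CPM in hypothalami (median 1693), against 0.262, 0, 0.816, 0.281 and 0.406 CPM in ovaries (log2 fold change 12.13, SE 0.52, edgeR adjusted p = 2.4e-10). The NMDA receptor subunit *grin1a* had a log2 fold change of 12.22 and the sodium channel subunit *scn1bb* one of 5.99. The 2 genes of the glutamate and GABA list that went the other way were the kainate receptor subunit *grik1a*, at 22.3 to 106 CPM in hypothalami and 355 to 495 CPM in ovaries (log2 fold change -2.94), and the GABA receptor subunit *GABRG3* (-2.49). The neuron structure list had its exceptions in the ubiquitin hydrolase *uchl1* (-1.70) and the internexin *inaa* (-3.83).

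Glial genes were also higher. Of the 18 genes of astroglia and radial glia tested, 15 were higher (median 5.09), led by the glutamate transporter *slc1a2b* (819 ± 167 CPM in hypothalami and 0.0725 ± 0.0759 CPM in ovaries, log2 fold change 13.32, SE 0.46). Glutamine synthetase, *glula*, had a log2 fold change of 0.99, with 1400 to 1892 CPM in hypothalami and 624 to 1019 CPM in ovaries. Of 20 myelin and oligodendrocyte genes, 14 were higher and 3 lower. *plp1b*, the main protein of central myelin, was at 782 to 991 CPM in hypothalami (median 911) and at 0 to 0.181 CPM in ovaries (log2 fold change 13.45, SE 0.43), while the myelin enzyme *cnp* was lower (-1.03). *epd*, the brain gene ependymin, which is secreted into cerebrospinal fluid in fish, was at 3218 to 6939 CPM in hypothalami (median 4675), against 0.785, 0.596, 1.63, 1.03 and 1.964 CPM in ovaries.

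Transcription factors of the forebrain and hypothalamus were higher in 39 of 51 and lower in 4, with a median of 5.41, or 5.20 when genes with 0 counts in all ovaries are placed at their lower bound. *neurod1*, a factor of neuronal differentiation, had 78.8 to 401 CPM in hypothalami and 0 counts in every ovary (pooled level at least 4129-fold higher). *zic1*, a factor of the developing neural tube, was at 135 to 630 CPM in hypothalami and at 2.25 to 5.35 CPM in ovaries. Lower in hypothalamus were *eomesa*, with 34.2 ± 24.0 CPM in hypothalami and 416 ± 90.7 CPM in ovaries, and *otx1* (log2 fold changes -3.61 and -2.99). *eomesa* is also a maternal transcript in zebrafish. Hox genes, which pattern the hindbrain and trunk, were higher in 11 of 19, such as *hoxb5b* at 3.15 to 17.1 CPM in hypothalami and 0 to 0.596 CPM in ovaries. The list summed to 44.6 to 144 CPM in hypothalami, against 172 to 267 CPM in ovaries.

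**Figure D4:**
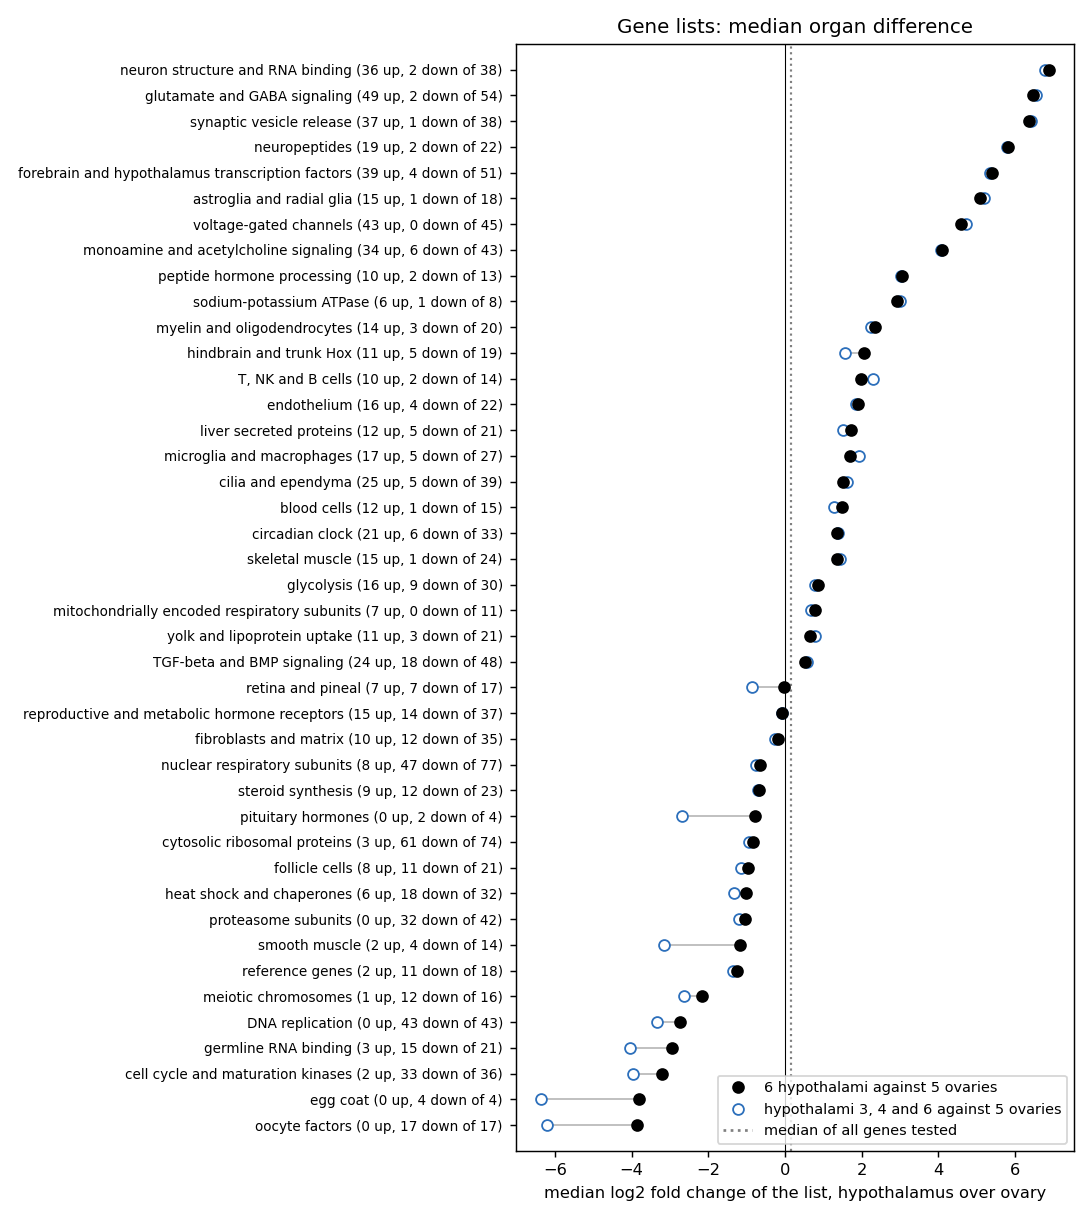
Median log2 fold change of hypothalamus over ovary for gene lists (x axis), with all 6 hypothalami and with hypothalami 3, 4 and 6 alone. The number of members called higher (up) and lower (down) is beside each name. The list of the candidate phoenixin receptor and its relative, with 2 genes tested, is not drawn. Neuronal lists lie at the right (6.89 for neuron structure and RNA binding) and moved little without hypothalami 1, 2 and 5, and oocyte lists lie at the left (-3.87 and -6.21 for oocyte factors).

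Markers of other cell types were present in both organs. The counts below stand against 43.4% higher and 38.5% lower over all genes. Microglia and macrophage genes summed to 781 to 1328 CPM in hypothalami and 457 to 1031 CPM in ovaries. They were higher in 17 of 27 and lower in 5. Among the higher was *p2ry12*, a receptor of resting microglia (43.3 to 94.8 CPM in hypothalami, against 2.70, 2.98, 2.81, 1.31 and 11.2 CPM in ovaries, log2 fold change 3.89). Of 22 endothelial genes, 16 were higher, such as the sphingosine phosphate receptor *s1pr1* (7.61) and *kdr*, a receptor for vascular growth factor (1.89). Another 4 were lower, among them the fenestral diaphragm gene *plvapb* (-2.66). Blood cell genes were higher in 12 of 15 and lower in 1, and the globin *hbbe2* ranged over 436 to 2876 CPM in hypothalami and 172 to 456 CPM in ovaries, with overlap. The blood list summed to 5855 CPM in hypothalamus 4 and 1416 to 2631 CPM in the other 5. Genes of proteins that the liver secretes were higher in 12 of 21 and lower in 5, of which 3 passed the 4-fold test. Among the higher were the apolipoproteins *apoa1b* (560 ± 174 CPM in hypothalami and 0.291 ± 0.159 CPM in ovaries, log2 fold change 10.91) and *apoa2* (12.46). The lowest log2 fold change of the list was -3.40.

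Smooth muscle genes stood apart in hypothalamus 5. In it the smooth muscle actin *acta2* stood at 2690 CPM, against 23.0 to 231 CPM in the other 5 hypothalami and an ovary mean of 2503 CPM, and *desmb*, an intermediate filament gene of muscle, stood at 2079 CPM. *acta2* was not called with all 6 hypothalami (log2 fold change -2.25, edgeR adjusted p = 0.0787) and stood at -4.74 (SE 0.69, edgeR adjusted p = 5e-05) without hypothalamus 5. That library was singled out after its high muscle values were seen. Lower values of smooth muscle genes without it therefore follow from the choice. The list had 4 lower and 2 higher of 14 with all 6 hypothalami, and 12 lower and 2 higher without hypothalamus 5. The number lower also moved with the method on the full set of libraries, to 10 with limma-voom, 10 with the replicate block and 1 with DESeq2. Fibroblast and matrix genes were mixed, with 10 higher, 12 lower and 13 not called of 35 (median -0.19). Over all genes 43.4% were higher and 38.5% lower. Past the 4-fold test, 5 of the list were higher and 1 lower. The collagens *col1a1b* and *col1a2* of fibroblasts were lower (log2 fold changes -2.98 and -2.86), and the matrix genes *tnc* and *timp2a* were higher (4.33 and 2.84). What hypothalamus 5 contained besides hypothalamus was not tested.

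Of 8 genes of the pituitary list, 4 were tested, and 2 of these were lower in hypothalamus, the somatolactin gene *smtla* (log2 fold change -2.64) and the pituitary transcription factor *pou1f1* (-2.11). The list summed to 29.1 to 44.3 CPM in hypothalami and 15.4 to 48.5 CPM in ovaries. Most of the hypothalamic sum came from *ghrhrb* (24.0 CPM) and *ghrhra* (11.4 CPM), receptors for growth hormone-releasing hormone, which were not called. The hormone subunit genes *lhb*, of luteinizing hormone, and *tshba*, of thyrotropin, averaged 0.222 and 0.0704 CPM in hypothalami, and prolactin, *prl*, 0.0248 CPM. Among retinal and pineal genes, 7 of 17 were higher and 7 lower, shares close to the 43.4% and 38.5% of all genes. Cilium genes were higher in 25 of 39, such as *rfx2* (0.88) and *tekt4* (5.95), and the cilium factor *foxj1b* averaged 33.8 CPM in hypothalami with 0 counts in every ovary. Lymphocyte genes were higher in 10 of 14, but their summed level was lower, at 281 to 402 CPM in hypothalami and 536 to 767 CPM in ovaries. Most of the ovarian sum came from *eomesa*, also named above as a maternal transcript, which averaged 34.2 CPM in hypothalami and 416 CPM in ovaries. The sum is therefore no measure of lymphocytes. *stat4*, a signal transducer of interleukin 12, was at 27.4 to 39.0 CPM in hypothalami and 137 to 147 CPM in ovaries (log2 fold change -2.14).

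Glycolysis genes were found on both sides, with 16 of 30 higher and 9 lower, against 43.4% and 38.5% over all genes. The glyceraldehyde phosphate dehydrogenase *gapdhs* was at 1526 to 2052 CPM in hypothalami (median 1861), against 128, 290, 224, 229 and 334 CPM in ovaries (log2 fold change 2.94, SE 0.24, edgeR adjusted p = 9.44e-08). Its relative *gapdh* was the reverse, at 8.78 to 340 CPM in hypothalami (median 159), against 1960, 2748, 2693, 2406 and 1881 CPM in ovaries (log2 fold change -3.86, SE 0.77). The enolases split likewise, with *ENO2* at 11.84 (SE 0.52) and *eno3* at -3.56 (SE 0.47), and the aldolase *aldocb* was higher (3.27, SE 0.17). With hypothalami 3, 4 and 6 alone, *gapdh* read -6.17 and *eno3* -4.74.

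**Figure D5:**
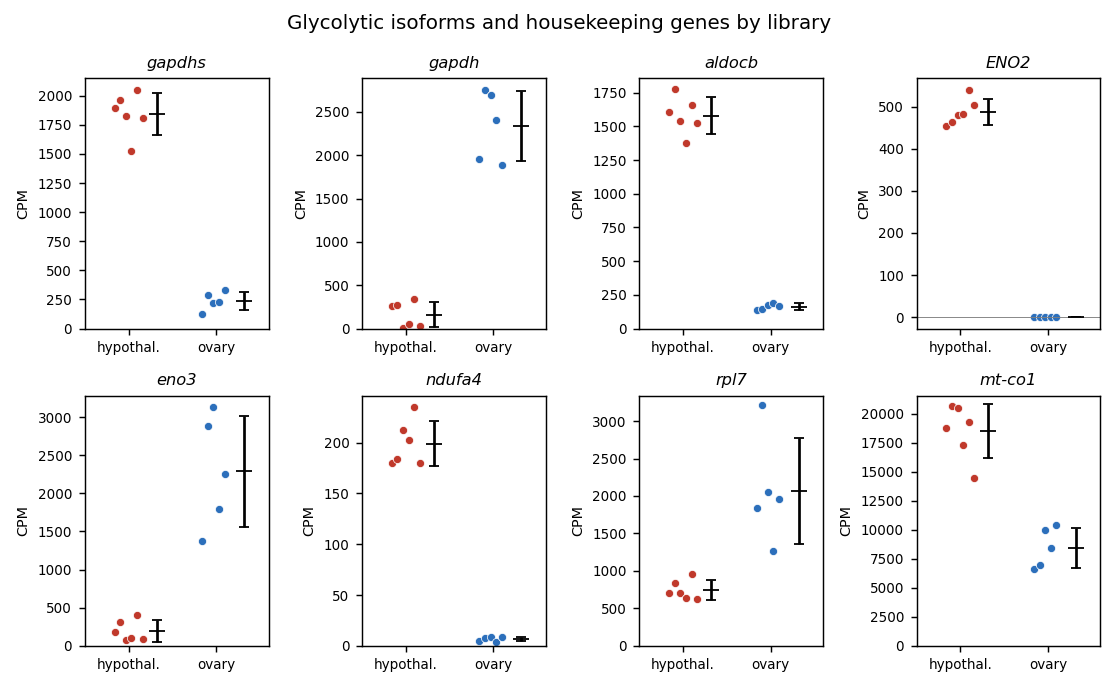
CPM of glycolytic isoforms, the respiratory subunit genes *ndufa4* and *mt-co1* and the ribosomal gene *rpl7* in each control hypothalamus (left) and control ovary (right), 1 point a library, with the mean and SD. *gapdhs* and *aldocb* lie higher in hypothalamus (1846 ± 181 and 1580 ± 136 CPM), and *gapdh* and *eno3* lie higher in ovary (2338 ± 403 and 2286 ± 732 CPM).

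The sodium-potassium ATPase, which restores ion gradients after nerve impulses, was higher in 6 of 8 genes. The beta subunit genes *atp1b3a* and *atp1b4* had log2 fold changes of 9.03 and 8.50. Cytosolic ribosomal proteins were lower in 61 of 74 by a small margin (median -0.84), such as *rpl7* with 746 ± 130 CPM in hypothalami and 2065 ± 708 CPM in ovaries (-1.47, SE 0.22). All 32 called proteasome genes of 42 tested were lower (median -1.05), and of the nuclear subunits of the respiratory chain 47 of 77 were lower and 8 higher. The mitochondrially encoded subunits went the other way, with 7 of 11 higher and 0 lower (median 0.78): *mt-co1* was at 14476 to 20631 CPM in hypothalami (median 19054), against 6574, 6946, 9934, 8400 and 10397 CPM in ovaries (log2 fold change 1.13, SE 0.19, edgeR adjusted p = 6.71e-05). Chaperones were lower in 18 of 32, with *hsp90ab1* at -1.52 and *hspd1* at -2.49.

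The list of yolk and lipoprotein uptake had 11 higher and 3 lower of 21. Among the lower was the very low density lipoprotein receptor *vldlr*, the vitellogenin receptor of fish oocytes, at 76.7 to 164 CPM in hypothalami (median 119), against 701, 751, 735, 1082 and 420 CPM in ovaries (log2 fold change -2.62, SE 0.29). The lipase *lpl* was also lower (-3.33, SE 0.28), and the lipoprotein receptor *lrp1ab* was higher (3.36). In the TGF-beta and BMP list, 24 of 48 genes were higher and 18 lower, near the 43.4% and 38.5% of all genes, and the list summed to 848 to 1062 CPM in hypothalami and 2134 to 2514 CPM in ovaries. Its lowest member was *gdf3*, a growth factor of early embryos, with 0.512 to 87.8 CPM in hypothalami (median 24.97) and 433 to 626 CPM in ovaries (log2 fold change -4.13). Clock genes were higher in 21 of 33 and lower in 6, with *per3* at 1.36 and *bhlhe40* at 2.77.

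Among the genes with the largest fitted fold changes were some with no ovarian counts, for which only a lower bound can be given. *sept5b*, a septin of nerve terminals, had 203 to 246 CPM in hypothalami and 0 counts in every ovary (at least 4326-fold higher). *STMN3*, a tubulin-binding protein of neurons, was at least 4335-fold higher and *map6a*, which stabilises microtubules, at least 2678-fold. *camk2a*, a calcium-dependent kinase of synapses, had 737 to 1394 CPM in hypothalami (median 1151) and 0.0872, 0, 0.181, 0.0937 and 0 CPM in ovaries (log2 fold change 13.73, SE 0.50). On the ovary side the most negative value belonged to *ecm1a*, an extracellular matrix protein, at 1.79 to 71.0 CPM in hypothalami (median 25.5), against 760, 1225, 1502, 1913 and 3086 CPM in ovaries (log2 fold change -5.88, SE 0.86, edgeR adjusted p = 3.74e-05). The connexin *cx34.5* followed at -5.85 (SE 0.60).

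Genes listed for 1 organ only were not tested. There were 762 for the hypothalamus, of which 208 reached 1 CPM, and 129 for the ovary, of which 0 did. A gene could be listed with as few as 2 counts over the libraries of an organ. Egg transcripts in hypothalami can therefore place an ovary gene in both lists. These numbers are no measure of how many genes are restricted to either organ. Among the first kind were *NEUROD2*, a neuronal transcription factor, at 98.8 ± 34.2 CPM, the kinase-like gene *camkva* at 78.3 ± 11.5 CPM and *CSRNP3* at 49.0 ± 4.98 CPM.

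Genes whose names differ only by a final a or b gave 884 testable pairs. The pairs were formed by name alone, and their members need not be copies from the genome duplication of teleost fish. The copies were called in opposite directions in 186 pairs, both higher in 307 and both lower in 124. These counts stand against 43.4% higher and 38.5% lower over all genes. Whether 186 is more or fewer than unrelated genes paired at random would give was not tested. Past the 4-fold test, 20 pairs were opposite, 133 both higher and 15 both lower. The pairs named below were taken from the 20 opposite ones. The topoisomerase *top2a*, used at mitosis, averaged 19.0 CPM in hypothalami and 155 CPM in ovaries (log2 fold change -3.03), and its relative *top2b*, used in cells that no longer divide, averaged 149 CPM in hypothalami and 13.4 CPM in ovaries (3.47). The pair *eomesa* and *eomesb* stood at -3.61 and 4.26.

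The PNX-14 fish gave the same contrast in other libraries. Between PNX-14 hypothalami and PNX-14 ovaries, 7888 genes were higher (46.3%) and 6681 lower (39.2%) of 17025 tested. Of 13899 control calls among 16910 genes tested in both, 13410 were called in the same direction (96.5% of the control calls and 92.5% of the PNX-14 calls) and 3 in the opposite one. For the 4-fold test, 4802 of 4998 were shared in direction (96.1% of the control calls and 79.8% of the 6017 PNX-14 calls) and 1 was opposite.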

How the data were processed

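The authors made stranded poly(A) libraries, filtered reads with fastp, aligned them to Ensembl TETRAODON 8.0 with HISAT2 and counted them per gene with featureCounts. Tool versions and the strand setting were not given in the sources used here, so overlapping, antisense and near-identical genes may share counts. The deposited counts are whole numbers, not normalized, in 1 table per organ. In the deposited FPKM, the authors took gene length and mapped reads into account. The authors' DESeq2 columns (log2 fold changes and p-values) and 22 columns of counts divided by size factors were not used. Coordinates are those of the files, and 14933 of 20108 genes carried a symbol.

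Tables were joined by gene identifier (19217 genes in both), filtered by edgeR's filterByExpr to 17115 and tested on the 11 control libraries in R 4.3.3 with edgeR 4.0.16 (TMM, quasi-likelihood test, organ as the only term, Benjamini-Hochberg at 0.05, glmTreat for 4-fold). limma 3.58.1 and DESeq2 1.42.0 served as alternatives, other scalings and filters were tried, each library was left out in turn, and scripts were tested on simulated counts. Single values were compared by exact two-sided permutation. CPM are on the TMM scale. Against 0 ovary counts, folds set the level pooled over the hypothalami against 3 counts over the ovary group.

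The members and the 43 lists were chosen with earlier results of these data known, and lists got no set test. Named genes followed a rule: the 10 with the highest CPM past the 4-fold test and the 5 with the largest fold at 10 CPM or more in each direction, up to 3 members a list and 2 called the other way, the egg markers, the top genes of 1 table, the 5 most alike, the 6 most variable within an organ, and hormone list members. Other genes were named after their values were seen. Results for some genes are not reported here.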

Additional observations from a re-analysis of the deposited data

Results flagged for a closer look

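In 11 of 119 groups of values checked, 1 library stood apart from the rest of its group by Dixon's criterion, which chance alone meets in about 1 in 20 groups. Control hypothalamus 5 did so for the summed level of smooth muscle genes (6295 CPM, against 338 to 865 CPM in the other 5), of skeletal muscle genes (3540 CPM, against 507 to 1019 CPM), of fibroblast and matrix genes (2258 CPM, against 1404 to 1684 CPM), for the share of counts in ribosomal protein genes (3.63%, against 2.79% to 3.02%) and for *cpa1*, a pancreatic carboxypeptidase (2.01 CPM, against 0.256 to 0.830 CPM). Control hypothalamus 4 stood apart in blood cell genes (5855 CPM, against 1416 to 2631 CPM), and control hypothalamus 6 in *rtn1b*, a reticulon of neurons (1303 CPM, against 1130 to 1187 CPM).

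Control ovary 6 had 15735216 counted reads, against 11756975 to 12723522 in the other 4, and 1030.51 CPM of microglia and macrophage genes, against 457 to 587 CPM. Control ovary 2 had 17015 genes with a count, against 17584 to 17810. Control ovary 5 had 157 CPM of *cpa1*, against 2.09 to 35.2 CPM. What these libraries contained besides the labelled organ was not tested.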

How the results depend on the processing

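The numbers of genes called higher and lower stayed within 1.5 times under every setting tried, and so did the number past the 4-fold test as higher, except that requiring 10 counts in every library gave 1525 in place of 3565, by testing 12973 genes in place of 17115. The number past the 4-fold test as lower (1479) was 954 with no scaling, 608 with 10 counts in every library, 719 with DESeq2 and 2268 without the 3 hypothalami highest in *zpax1*; the cause was not tested. Leaving out 1 library at a time gave 7140 to 7506 higher, 6400 to 6723 lower, 3434 to 3674 past the 4-fold test as higher and 1217 to 1832 as lower, the last without control hypothalamus replicates 6 and 5. Of the genes named for similar levels, *slc25a12* turned to 0.30 with no scaling and 0.26 with 10 counts in every library, *gnai2a* to 0.31 and 0.27, and *zdhhc16b* to 0.28 with no scaling. Same-numbered hypothalamus and ovary deviated together by correlations of 0.119, 0.0677, 0.0426, -0.182 and 0.283. Of the 5 hypothalami, 2 correlated best with their own number. So few pairs cannot decide whether the same number marks the same fish. No source states the pairing, and the main test used no block. With the replicate block, 7202 genes were higher, 6189 lower, 3515 past the 4-fold test as higher and 1397 as lower. For genes with 0 counts in every ovary, depth leaves only a lower bound on the fold change.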

Other observations

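The genes with the widest spread among the 6 hypothalami, by the SD of log2 CPM at a mean of at least 5 CPM, were largely muscle genes: *desmb*, *acta2*, *ACTA1*, *smtna* and *tpm2*. The sixth was *zgc_114181*, at 4.92 to 503 CPM in hypothalami (median 119) and 0 to 0.339 CPM in ovaries.

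The genes with the widest spread among the 5 ovaries did not share an order of libraries. *asb14a* stood at 0, 0.795, 55.5, 45.5 and 2.44 CPM in ovaries 1, 2, 3, 5 and 6, and *gsg1l2a* at 0.349, 35.7, 75.9, 0.0937 and 4.40 CPM. *abcb11b*, a bile salt transporter, stood at 69.2 CPM in ovary 5 and at 0.135 to 3.23 CPM in the other 4. *LGALS2*, a galectin, was at 31.8 to 52.5 CPM in ovaries 2, 3 and 6, at 4.19 CPM in ovary 1 and at 0 in ovary 5.

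With hypothalami 3, 4 and 6 alone, the most negative fitted log2 fold change was that of *rgs1*, a regulator of G protein signaling. It was at 0 CPM in these hypothalami and 16.5 CPM in ovaries (-10.64, and -4.55 with all 6). With no counts on 1 side, only a bound on its fold can be given, so its size and rank are not settled. Among genes with a symbol and at least 10 CPM in ovaries, the next fitted values were those of *pdzd3b* (-8.43), the gene listed as *tni-mir-202* (-8.27) and *cyp17a1* (-8.11).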
